A study of Mus musculus with 14 samples.

Results

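The dual-specificity phosphatases that switch off mitogen-activated protein kinases (MAPKs) were followed in the superior mesenteric artery of mice with and without ischemia. The 10 genes Dusp1, Dusp2, Dusp4, Dusp5, Dusp6, Dusp7, Dusp8, Dusp9, Dusp10 and Dusp16 were taken from the count table by symbol, out of 46095 symbols in all. All 10 were in the table, and 9 passed the filter on low counts together with the other genes of the 17693 that were tested. The exception was Dusp9, which held 19 counts over 14 mice.

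MAPKs (ERK, JNK and p38) are active only while phosphorylated on a threonine and a tyrosine of the same loop, and these phosphatases remove both phosphates. Many of them are transcribed in response to the kinases they later inactivate, so that their mRNA is read as a trace of recent MAPK activity as well as a brake on it. Dusp1, Dusp2, Dusp4 and Dusp5 are nuclear and inducible, Dusp6, Dusp7 and Dusp9 are cytoplasmic and prefer ERK, and Dusp8, Dusp10 and Dusp16 prefer JNK and p38. In arteries MAPK signalling takes part in contraction, growth and the response to stress.

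The study asked how Drp1, the mitochondrial fission GTPase encoded by Dnm1l, shapes the vascular response to ischemia. All mice were 8 weeks old on a C57BL/6 background, and total RNA of the artery was sequenced. The 4 groups were WT normal mice (Drp1 +/+, n = 3), KO normal mice (Drp1 flox/+ in the labels, n = 4), WT ischemia mice (Drp1 +/+, n = 3) and KO ischemia mice (Drp1 flox/+, n = 4). The name KO follows the study, whose methods describe a heterozygous frameshift of exon 2 made by CRISPR/Cas9 and name no Cre driver, and ischemia was produced by bleeding through a femoral artery catheter. The descriptions of the ischemic samples carry the mark 2 h, whereas the study's text speaks of a longer period, so the duration is uncertain.

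Total counts ranged from 25612646 to 40255851 per mouse. Values are given as CPM, counts relative to the library total, scaled by edgeR's trimmed mean of M-values (TMM), and 3 counts, taken as the smallest level the depth can show, correspond to 0.0678 to 0.113 CPM. Dnm1l ranged from 54.8 to 62.2 CPM in KO normal mice, below the 63.8 to 90.9 CPM of WT normal mice (log2 fold change −0.32 ± 0.16 SE, edgeR FDR 0.974), and overlapped under ischemia (−0.11 ± 0.16, FDR 0.872). The first of these changes was −0.13 without WT normal replicate 3, which held the 90.9 CPM, and −0.40 without WT normal replicate 2. An exact two-sided permutation test on log2 CPM gave p = 0.0286 under normal conditions, the smallest these groups allow, and p = 0.457 under ischemia. Counts over the whole gene thus separated the genotype labels weakly. The study itself reports lower exon 2 reads and lower Drp1 protein in its KO mice, which these counts per gene cannot show. Smooth muscle markers were abundant in every mouse (7006 to 36209 summed CPM over 6 genes) and those of endothelium were present (639 to 1679 over 6 genes). WT normal replicate 2 stood apart from the other WT normal mice. It had the lowest smooth muscle sum (7006 CPM) and the highest brown adipocyte sum of 4 genes (6232 CPM, against 146 and 1560 CPM in these mice). The brown adipocyte sum also reached 5958 CPM in KO normal and 4593 CPM in KO ischemia mice. WT normal replicate 3 was the only library run on lane 1 by its description, and the other 13 carry lane 8. Fold changes of the phosphatases are given below also without one of these libraries where that moved a printed value by over 1.5 times. Fewer cells of a type and less RNA per cell cannot be told apart in such bulk tissue.

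The proximal promoters are shown because cyclic AMP response elements are known from the Dusp1 promoter and because the members compared below differ in them. RefSeq gave the 250 bases before the start of 8 of the 10 genes on GRCm38, and Dusp4 and Dusp9 had no entry. Both strands were searched for the cyclic AMP response element TGACGTCA and for its shortened form TGACG (which every full element contains). The AP-1 element TGANTCA, the ETS motif CCGGAA and the CArG box of serum response factor were also searched for. Bases annotated as exon of any gene were left out of what is printed, and capitals mark the full or shortened response element.
Dusp1, chr17:26508520-26508722, minus strand, from 250 to 48 bases before the start: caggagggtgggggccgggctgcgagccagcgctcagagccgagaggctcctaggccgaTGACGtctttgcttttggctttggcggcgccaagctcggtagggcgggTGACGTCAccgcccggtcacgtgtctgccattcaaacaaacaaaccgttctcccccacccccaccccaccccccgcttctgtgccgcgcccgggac
Dusp8, chr7:142095285-142095534, minus strand: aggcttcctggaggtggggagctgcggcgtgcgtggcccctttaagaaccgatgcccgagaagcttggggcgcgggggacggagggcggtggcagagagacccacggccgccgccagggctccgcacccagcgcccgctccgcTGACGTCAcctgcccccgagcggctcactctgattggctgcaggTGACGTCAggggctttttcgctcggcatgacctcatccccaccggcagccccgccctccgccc
Dusp16, chr6:134792629-134792878, minus strand: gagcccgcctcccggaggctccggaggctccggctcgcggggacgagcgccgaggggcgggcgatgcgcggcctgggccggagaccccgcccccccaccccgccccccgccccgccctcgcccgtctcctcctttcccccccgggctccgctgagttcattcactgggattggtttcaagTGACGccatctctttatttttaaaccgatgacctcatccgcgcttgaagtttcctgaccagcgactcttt
Dusp6, chr10:99262981-99263230, plus strand: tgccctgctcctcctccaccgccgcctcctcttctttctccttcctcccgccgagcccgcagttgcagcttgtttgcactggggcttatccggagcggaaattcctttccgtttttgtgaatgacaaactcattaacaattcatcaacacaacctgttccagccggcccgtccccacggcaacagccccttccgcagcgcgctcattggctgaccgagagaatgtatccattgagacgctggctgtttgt
Dusp7, chr9:106368382-106368631, plus strand: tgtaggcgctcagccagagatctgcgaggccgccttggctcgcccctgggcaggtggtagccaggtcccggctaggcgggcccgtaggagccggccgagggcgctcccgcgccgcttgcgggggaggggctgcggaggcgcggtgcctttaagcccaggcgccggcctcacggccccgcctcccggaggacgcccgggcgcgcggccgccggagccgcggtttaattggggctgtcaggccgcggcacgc

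The Dusp8 window held 2 full response elements and the Dusp1 window held 1 full and 1 further shortened one. A full element was present in 1.55% of the 32851 RefSeq promoter windows of this length. Dusp16 held 1 shortened element, a form found in 17.8% of windows. Dusp5 held 1 shortened element and 2 CArG boxes, the latter found in 1.47% of windows, and its window lies entirely in annotated exon and is not printed. The windows of Dusp2, Dusp6, Dusp7 and Dusp10 held none of the 5 motifs, which says only that these letters are not in these windows. By coordinates the windows of Dusp1, Dusp8 and Dusp10 lie inside the GENCODE spans of their genes. In the Dusp10 window 171 of 250 bases are annotated exon. AP-1 elements and the ETS motif CCGGAA, found in 6.75% and 12.0% of all windows, were in none of the 8. Shorter forms of the ETS motif were not searched for. The GC content of the 8 windows ranged from 56.4% (Dusp6) to 77.2% (Dusp7), each above the median of all windows (52.4%).

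Per length of exon, Dusp1 was by far the most abundant member. Its median was 91.4 CPM per kb over the 14 mice, and it lay above the next gene, Dusp7, in all 14. Dusp7 (median 8.10 CPM per kb), Dusp8 (7.96), Dusp6 (7.01) and Dusp10 (6.52) followed close together. Dusp7 exceeded Dusp8 in 6 of 14 mice, Dusp8 exceeded Dusp6 in 9 and Dusp6 exceeded Dusp10 in 4, so these neighbours did not separate. Dusp10 exceeded Dusp4 (4.74 CPM per kb) in 13 of 14 mice, and Dusp4 exceeded Dusp16 (3.15) in 7. Dusp16 lay above Dusp5 (0.983 CPM per kb) in all 14, and Dusp5 above Dusp2 (0.435) in 12. The median of Dusp9 was 0.

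**Figure D1:**
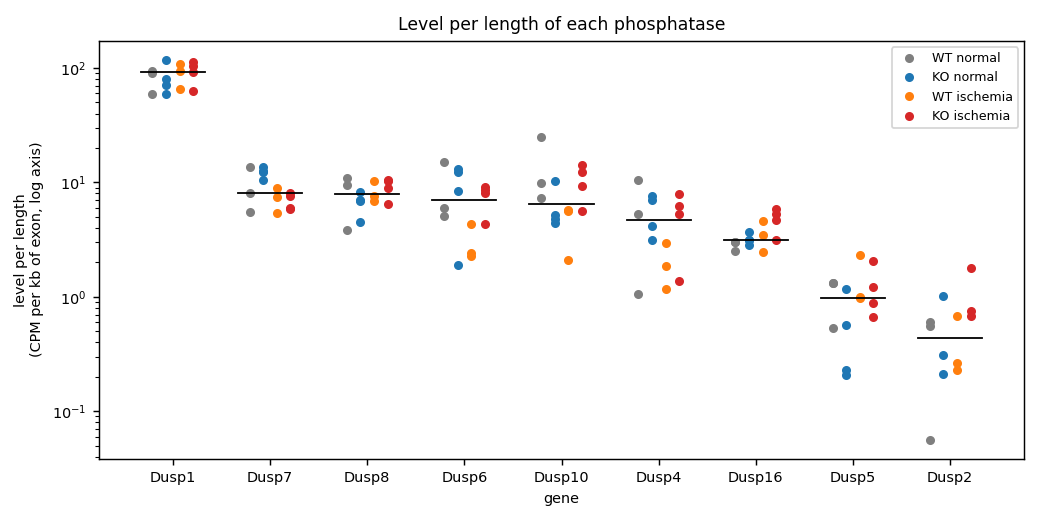
Level per length (CPM per kb of exon, log axis) of 9 phosphatases, each point 1 mouse coloured by group and each line the median of 14 mice. Dusp1 stands alone at a median of 91.4, Dusp7, Dusp8, Dusp6 and Dusp10 overlap, and Dusp5 and Dusp2 lie lowest (2 mice with 0 counts of Dusp2 are not drawn).

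Across the whole family no phosphatase was called in any comparison between groups at an edgeR FDR under 0.05 with a fold over 1.5. That was 0 of 9 for WT ischemia against WT normal (background 0.0113% of all genes tested), 0 of 9 for KO ischemia against KO normal (0.294%) and 0 of 9 for ischemia against normal averaged over both genotypes (0.927%). It was also 0 of 9 for KO against WT under normal conditions, under ischemia and averaged, and for the difference of the ischemia effects, where the background was 0% as well. The 0 called genes of this background were 29 for KO normal against WT normal and 102 for KO against WT averaged without WT normal replicate 2, with 0 phosphatases among them. A test of any difference among the 4 groups called 0 of 9 (background 0.13%, or 23 genes, and 208 genes without that mouse). The members with an unadjusted p under 0.05 numbered 2 in WT mice under ischemia (background 9.57%), 2 in KO mice (13.2%) and 3 in the average (18.1%). They numbered 1 for KO normal against WT normal (5.25%), 2 for KO ischemia against WT ischemia (6.48%), 0 for KO against WT averaged (7.77%) and 1 for the difference of the ischemia effects (4.32%). In the test over the 4 groups they were 3 (12.5%), namely Dusp7, Dusp10 and Dusp16. DESeq2 called 1 phosphatase, Dusp7 in KO mice under ischemia, and limma-trend called 0 in every comparison.

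**Figure D2:**
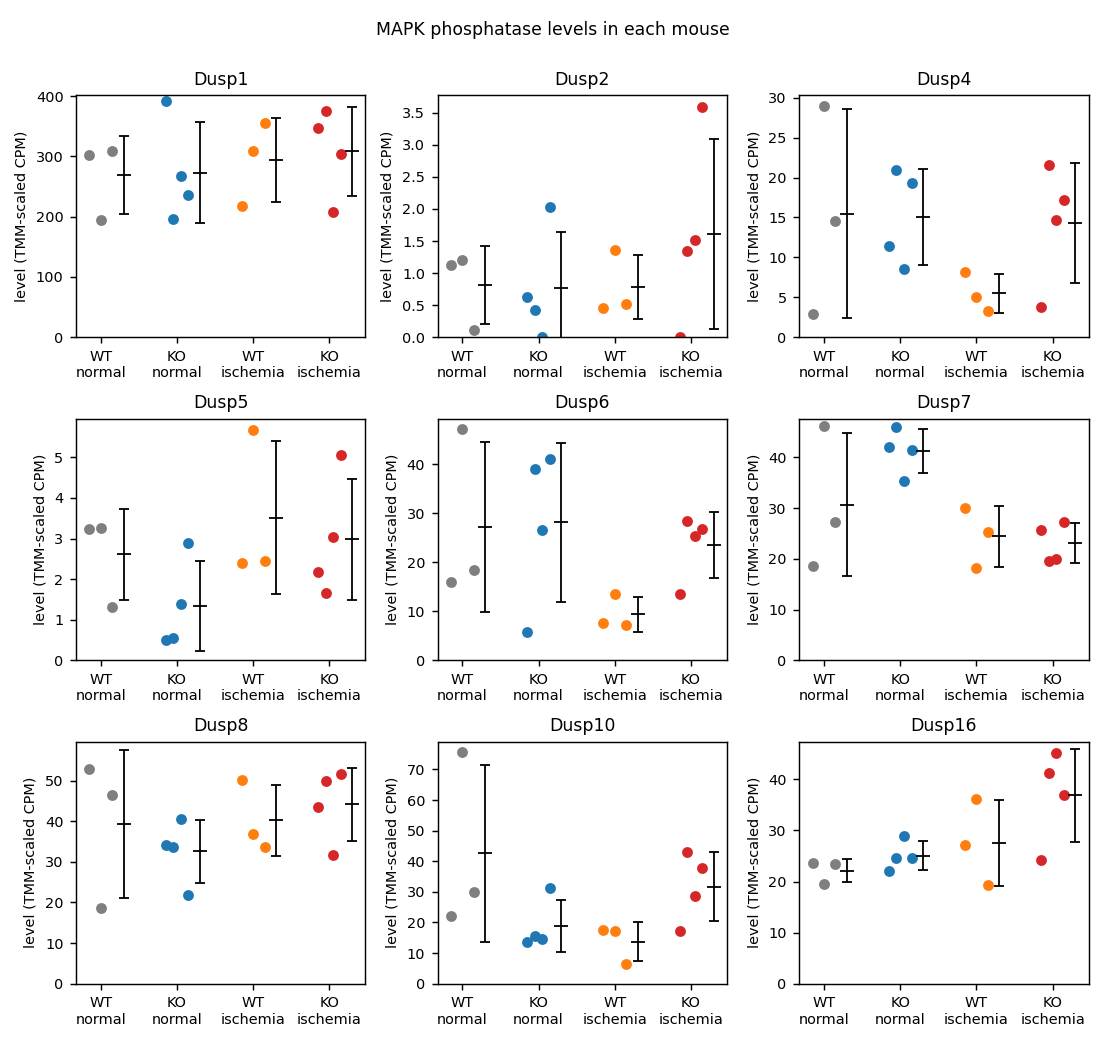
Level in TMM-scaled CPM (linear axes from 0) of 9 phosphatases in the 14 mice, each point 1 mouse, with the mean ± SD of each group beside it (bars that would fall under 0 end at the axis). Dusp7 was lower in all 4 KO ischemia mice (19.5 to 27.2) than in all 4 KO normal mice (35.4 to 45.9), whereas most other groups overlap.

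Among the nuclear phosphatases, Dusp1 (chr17:26505590-26562128, minus strand), an immediate-early gene that acts on p38, JNK and ERK, had the smallest averaged change with ischemia of the 9 tested members. It stood at 302, 195 and 310 CPM in WT normal mice, 391, 197, 268 and 235 in KO normal mice, 218, 309 and 356 in WT ischemia mice and 347, 375, 207 and 304 in KO ischemia mice. All 4 groups overlapped. The averaged change with ischemia was 0.15 ± 0.20 (log2 ± SE, 95% interval −0.28 to 0.59, FDR 0.711) and 0.06 without WT normal replicate 2, and the interval of KO against WT averaged over both conditions ran from −0.39 to 0.48. Both intervals lie within a 2-fold change in either direction.

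Dusp4 (chr8:34807297-34819894, plus strand), a nuclear phosphatase of ERK and JNK, was at 2.89, 29.0 and 14.6 CPM in WT normal mice and at 8.15, 5.07 and 3.23 in WT ischemia mice. The WT normal group therefore spanned the whole WT ischemia group. The change was −1.496 ± 0.72 (FDR 0.528), and −0.68 without WT normal replicate 2. KO mice held 11.4, 20.9, 8.58 and 19.3 CPM under normal conditions and 3.80, 21.6, 14.6 and 17.2 under ischemia, with a change of −0.08 ± 0.60 (−0.04 without WT normal replicate 2). KO ischemia mice had a Dusp4 level 1.38 ± 0.68 above WT ischemia mice on the log2 scale (FDR 0.715), and the 2 groups overlapped through the single KO mouse at 3.80.

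Dusp5 and Dusp2, an ERK-specific nuclear phosphatase and one best known from leukocytes, were near the limit of what could be compared. Dusp5 ranged from 0.508 to 5.68 CPM (18 to 167 counts). Its change in KO mice under ischemia was 1.15 ± 0.60 (FDR 0.434) and overlapped, with 0.51, 0.56, 1.40 and 2.88 CPM against 2.17, 1.66, 3.04 and 5.05. An antisense gene shares 22.1% of the exon length of Dusp5, and whether reads were counted by strand is not known, so part of its counts could belong there. Dusp2 ranged from 0 to 3.59 CPM (0 to 118 counts, 2 mice at 0), and the narrowest interval of its fold changes, that of averaged ischemia, ran from −1.61 to 2.62 on the log2 scale. T and B lymphocyte markers were also low in all mice (0.608 to 13.3 summed CPM over 5 genes), as were neutrophil markers (0.177 to 14.1 over 4 genes). Macrophage markers ran higher, from 24.5 to 266 summed CPM over 4 genes.

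Of the ERK-selective phosphatases, Dusp7 and Dusp6 each had groups that did not overlap. Dusp7 (chr9:106368632-106375724, plus strand) stood at 42.0, 45.9, 35.4 and 41.3 CPM in KO normal mice and at 25.6, 19.5, 19.9 and 27.2 in KO ischemia mice. Every ischemic KO mouse lay below every normal KO mouse, as in 5.6% of all genes tested. The change was −0.84 ± 0.25 (95% interval −1.38 to −0.29, p = 0.00520, FDR 0.183), and an exact two-sided permutation test on log2 CPM gave p = 0.0286, the smallest that 4 against 4 mice allow. The FDR passed the limit in DESeq2 (0.0499) and when only the 2 KO groups were fitted (0.0377), so the call depends on the test and on the mice fitted. In WT mice Dusp7 was at 18.7, 46.1 and 27.2 CPM under normal conditions and at 30.0, 18.1 and 25.2 under ischemia. These overlapped, with a change of −0.33 ± 0.29 (FDR 0.682) that became 0.07 without WT normal replicate 2. The effect in KO mice was not shown to differ from that in WT mice (difference −0.51 ± 0.38, FDR 0.946), and the difference was −0.88 without WT normal replicate 2 (FDR 0.998) and −0.22 without WT normal replicate 1. Averaged over both genotypes, Dusp7 changed by −0.58 ± 0.19 (FDR 0.155, exact permutation p = 0.0357 within genotypes), by −0.37 without WT normal replicate 2 (FDR 0.316) and by −0.70 without WT normal replicate 1 (FDR 0.0492).

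Dusp6 (chr10:99263231-99267489, plus strand), the cytoplasmic ERK phosphatase whose transcription follows ERK activity, was lowest in WT ischemia mice. They held 7.63, 13.6 and 7.18 CPM, below the 16.0, 47.3 and 18.5 of WT normal mice and the 13.6, 28.4, 25.4 and 26.8 of KO ischemia mice. WT ischemia mice did not overlap with WT normal mice (lower, as in 4.42% of all genes). Nor did they overlap with KO ischemia mice (higher in KO, as in 4.74%), though only by the margin from 13.57 to 13.64 CPM. KO normal mice spread from 5.90 to 41.1 CPM and covered all the other groups apart from 1 WT normal mouse. The change with ischemia in WT mice was −1.53 ± 0.60 (FDR 0.513), −0.89 without WT normal replicate 2 and −1.74 without the lane 1 library. Between 3 and 3 mice an exact permutation test cannot go below p = 0.1, which is the value it gave. The difference of KO ischemia from WT ischemia was 1.32 ± 0.56 (p = 0.0358, FDR 0.715, exact permutation p = 0.0571). In KO mice the change with ischemia was −0.26 ± 0.50 (FDR 0.893).

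Dusp9, the third ERK-preferring member, reached at most 6 counts in a mouse and was at 0 in 9 of 14, so it was not tested.

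Of the phosphatases of JNK and p38, 0 of 3 were called. Dusp10 (chr1:184013302-184075636, plus strand) showed opposite signs in the 2 genotypes. WT mice held 22.1, 75.6 and 29.9 CPM under normal conditions and 17.5, 17.2 and 6.44 under ischemia. KO mice held 13.5, 15.7, 14.6 and 31.4 CPM under normal conditions and 17.2, 43.0, 28.6 and 37.6 under ischemia. In WT mice all ischemic values lay below all normal ones, as in 4.42% of all genes. The change was −1.63 ± 0.52 (FDR 0.513), and −0.94 without WT normal replicate 2, which held the 75.6. The exact permutation test gave p = 0.1, the smallest that these groups allow. In KO mice the groups overlapped (0.75 ± 0.44, FDR 0.499). The difference of the effects was 2.38 ± 0.68 (95% interval 0.91 to 3.85), which placed Dusp10 among the 4.32% of genes with an unadjusted p under 0.05, but its FDR over all genes was 0.946. It was 1.72 without WT normal replicate 2. KO against WT mice differed by −1.18 ± 0.47 under normal conditions (FDR 0.911, −0.48 without that mouse) and by 1.20 ± 0.49 under ischemia (FDR 0.715).

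Dusp16 (chr6:134715468-134792625, minus strand), a phosphatase that moves between nucleus and cytoplasm, was among the least variable members, with a 2.34-fold range over 14 mice. It was at 23.6, 19.5 and 23.4 CPM in WT normal mice, 22.1, 24.5, 28.9 and 24.5 in KO normal mice, 27.2, 36.2 and 19.3 in WT ischemia mice and 24.3, 41.3, 45.2 and 36.9 in KO ischemia mice. In KO mice 3 of 4 ischemic values lay above all normal ones, with a change of 0.56 ± 0.22 (FDR 0.292). The averaged change with ischemia was 0.44 ± 0.17 (FDR 0.202, exact permutation p = 0.04 within genotypes). Dusp8 ranged from 18.6 to 52.9 CPM, overlapped between all groups, and its averaged change with ischemia was 0.24 ± 0.23 (FDR 0.596), or 0.07 without WT normal replicate 2.

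**Figure D3:**
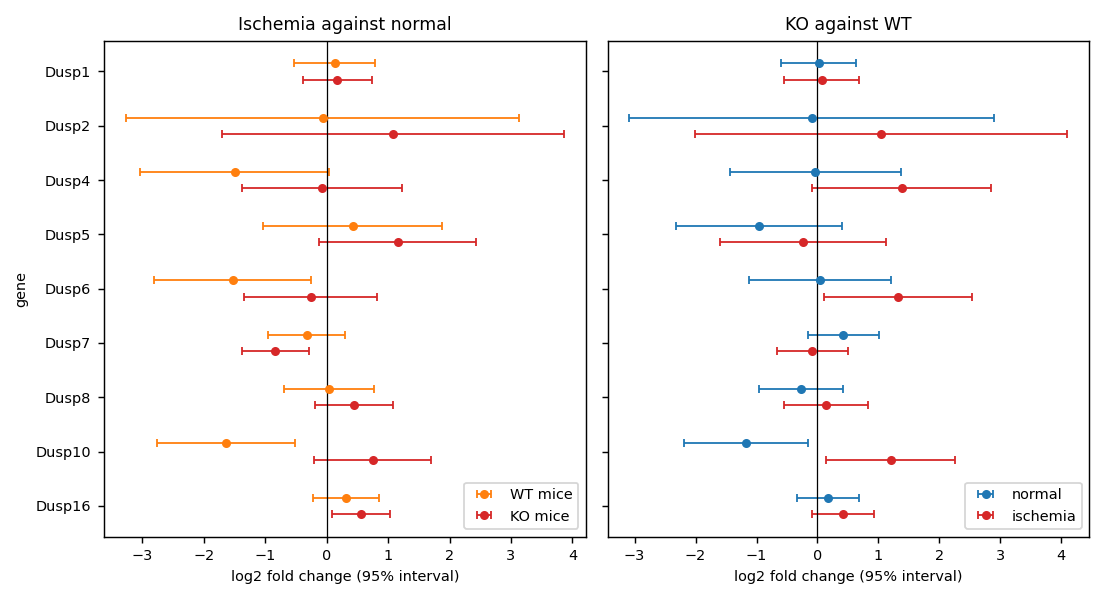
Log2 fold changes from edgeR with 95% intervals for 9 phosphatases, ischemia against normal within each genotype (left) and KO against WT within each condition (right). Dusp7 in KO mice lies below 0 (−0.84), Dusp6 and Dusp10 in WT mice lie lowest (−1.53 and −1.63), and 0 of these changes had an FDR under 0.05.

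The median log2 fold change of the 9 phosphatases was −0.07 in WT mice under ischemia, where the median of all genes was −0.01, and 0.44 in KO mice, where that of all genes was −0.05. These comparisons share no mice, but the KO against WT comparisons reuse them. For KO against WT the family's median was −0.04 under normal conditions (all genes −0.02) and 0.42 under ischemia (all genes −0.03). In the average over both genotypes it was 0.15 with 5 of 9 members above 0 (all genes −0.05). Without WT normal replicate 2 the median turned to 0.08 for KO against WT under normal conditions, where that of all genes was also 0.08, and was 0.06 in the averaged ischemia comparison. Without the lane 1 library it was −0.40 in WT mice under ischemia and −0.13 for KO against WT under normal conditions.

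Other genes of the MAPK pathways, taken from lists chosen with earlier results of these data known, are given beside the phosphatases. The immediate-early list (AP-1 subunits, Egr and Ier genes and ETS factors) had 6 of 19 tested genes higher in the average over both genotypes (0.616% of all genes were called higher) and 0 lower, with a median log2 fold change of 0.58. Of the 19 genes 15 had a change above 0, and no Egr gene or ETS factor was among the 6 called. In that list Junb, an AP-1 subunit, rose from 37.1 to 124 CPM in WT normal and 28.6 to 92.2 in KO normal mice to 219 to 366 in WT ischemia and 110 to 278 in KO ischemia mice. Its change was 1.81 ± 0.32 (edgeR FDR 0.0221). Fosl2 (1.47 ± 0.27, FDR 0.0260), Ier5 (1.40 ± 0.27, FDR 0.0299), Atf3 (1.17 ± 0.23, FDR 0.0327) and Ier2 (0.92 ± 0.20, FDR 0.0467) were also called higher in this average. The remaining gene called, the AP-1 subunit Fosl1, is named after its values were seen because it completes the count of 6. It was at 0 to 0.189 CPM in WT normal mice and 0 in all KO normal mice, against 0.334 to 1.63 CPM in WT ischemia and 0.149 to 0.952 CPM in KO ischemia mice, so no fold is given for it. Within KO mice alone Atf3, a stress-induced repressor, was the 1 gene of the list called (2.21 ± 0.32, FDR 0.0132), from 13.3 to 23.1 CPM to 41.7 to 112 CPM. The mean of Atf3 in WT mice was 29.3 CPM (SD 8.33) under normal conditions and 32.1 CPM (SD 9.96) under ischemia. Its averaged rise therefore came mainly from the KO mice. In WT mice 0 of 19 were called. The shares of all genes called were 0.0113% in WT and 0.294% in KO mice. At an unadjusted p under 0.05 the list had 8 of 19 in WT mice (9.57% of all genes) and 9 of 19 in KO mice (13.2%). The count of 6 was 3 without WT normal replicate 2, 2 without the lane 1 library and 0 without WT ischemia replicate 2.

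In the kinase lists 1 gene passed the test. Of the p38 list 1 of 5 tested genes was higher with ischemia, the p38 activator Map2k3 (0.82 ± 0.14, FDR 0.0181), which lay at 64.5 to 83.6 CPM in the 7 normal mice and at 81.7 to 161 CPM in the 7 ischemic mice. Mapk12, a p38 isoform, gave −0.46 ± 0.25 (FDR 0.334). The ERK list had 0 of 9 called, with Mapk3 at −0.19 ± 0.12 (FDR 0.414). The JNK list had 0 of 5 called, with Map2k4 at 0.30 ± 0.10 (FDR 0.161), and Mapk10 held 1683 of its 2064 counts in 1 KO ischemia mouse. The other feedback inhibitors of ERK (Sprouty, Spred and related genes) had 0 of 10 called, with Errfi1 at 2.05 ± 0.60 (FDR 0.122) and Spry4 at 1.20 ± 0.36 (FDR 0.129). The glucocorticoid-induced list, which shares Errfi1, had 0 of 7 called, with Klf9 at 0.49 ± 0.15 (FDR 0.128). The atypical dual-specificity phosphatases, which lack the MAPK-docking domain, had 0 of 14 called, with Dusp22 at −0.90 ± 0.25 (FDR 0.102) and Dusp12 at 0.42 ± 0.15 (FDR 0.186). In the lists with 0 called, the genes with an unadjusted p under 0.05 in the average were 0 of 9 for ERK kinases, 2 of 5 for JNK kinases, 2 of 10 for other feedback inhibitors, 4 of 7 for the glucocorticoid list and 5 of 14 for the atypical phosphatases, where 18.1% of all genes passed this limit. For KO against WT, 0 genes of these lists were called in any comparison.

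**Figure D4:**
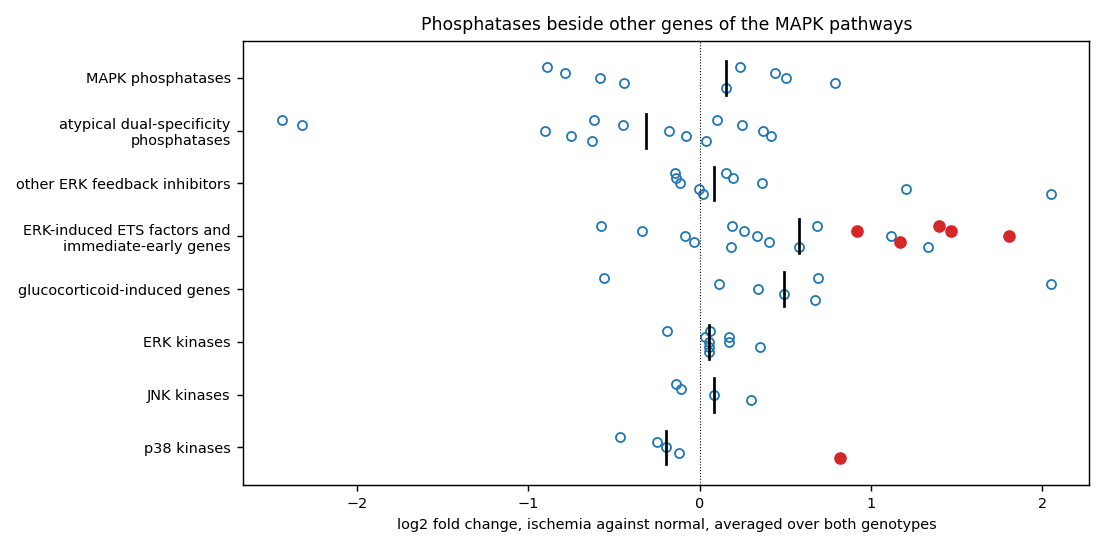
Log2 fold change of ischemia against normal averaged over both genotypes, each point 1 gene of the list named on the left, filled red where called and open where not, with the list's median as a bar. The 5 red genes of the immediate-early list and Map2k3 lie to the right of 0, and 0 phosphatases are red (Fosl1 and Mapk10, with almost no counts in some groups, are not drawn).

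Within groups, the levels of several members ran alongside markers of cell types in the artery and the fat around it, though no relation passed the adjustment. The relations were taken over the 14 mice after subtracting each group's mean, for 9 members and 11 marker lists (99 relations, exact permutation of 20736 arrangements within groups, adjusted by Benjamini-Hochberg). Dusp6 went with the endothelial markers (Pearson r = 0.84, exact p = 0.00101, adjusted 0.0501, Spearman rho = 0.89, exact p = 0.00145, adjusted 0.0704) and against the smooth muscle markers (r = −0.76, exact p = 0.00217, adjusted 0.0716, rho = −0.86, exact p = 0.00183, adjusted 0.0704). Dusp4 went with the white adipocyte markers (r = 0.87, exact p = 0.000627, adjusted 0.0501, rho = 0.82, exact p = 0.00285, adjusted 0.0704). Dusp10 went with the endothelial markers (r = 0.81, exact p = 0.00395, adjusted 0.0783, rho = 0.80, exact p = 0.00420, adjusted 0.0831). Both also ran with fat markers, Dusp6 with brown adipocyte (r = 0.68, exact p = 0.00362, adjusted 0.0783, rho = 0.75, exact p = 0.00989, adjusted 0.163) and Dusp10 with white adipocyte markers (r = 0.71, exact p = 0.00492, adjusted 0.0812, rho = 0.79, exact p = 0.00227, adjusted 0.0704). Dusp8 went with the smooth muscle markers (r = 0.87, exact p = 0.00989, adjusted 0.122, rho = 0.81, exact p = 0.0146, adjusted 0.168). Of the 99 relations 0 had an adjusted p under 0.05. Without the 2 mice farthest from the median of the markers, r was 0.82 for Dusp6 with endothelium, −0.82 with smooth muscle, 0.81 for Dusp4, 0.70 for Dusp10 with endothelium and 0.73 for Dusp8, and with the fat markers 0.68 for Dusp6 and 0.69 for Dusp10. On the 13 mice of lane 8 it was 0.85, −0.78, 0.87, 0.83, 0.85, 0.73 and 0.79 in the same order. Dusp8 also went against the neutrophil markers, which were low in all mice (r = −0.65, exact p = 0.00781, adjusted 0.110, rho = −0.54, exact p = 0.0866, adjusted 0.416).

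**Figure D5:**
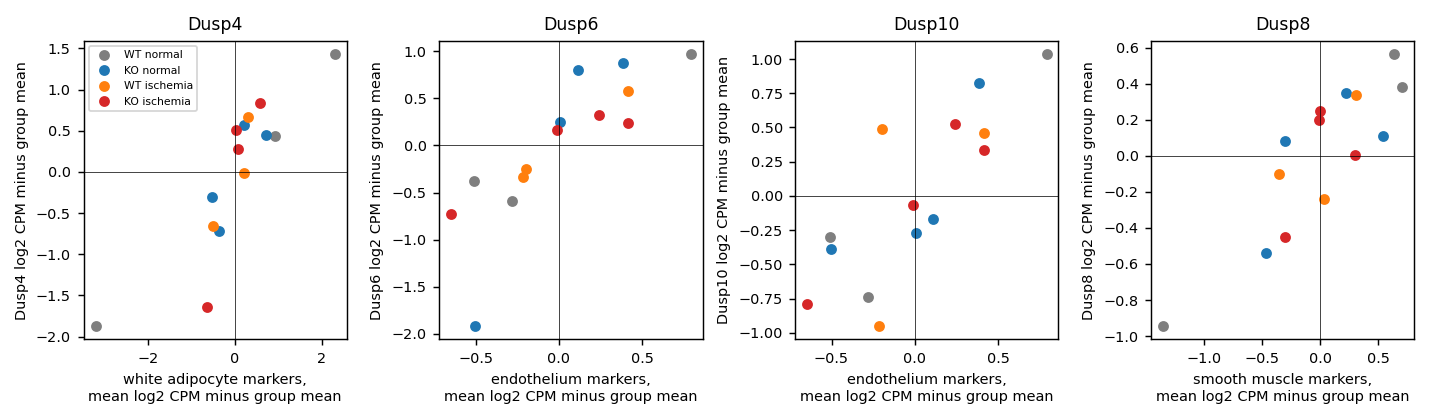
Level of Dusp4, Dusp6, Dusp10 and Dusp8 (log2 CPM minus group mean) against the mean of a marker list (log2 CPM minus group mean), each point 1 of 14 mice coloured by group. Dusp4 runs with white adipocyte markers (r = 0.87), Dusp6 and Dusp10 with endothelial markers (r = 0.84 and 0.81) and Dusp8 with smooth muscle markers (r = 0.87).

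The levels of these markers by group were not tested, and most of their ranges overlap. The summed white adipocyte markers (4 genes) ran from 164 to 3804 CPM in WT normal and from 269 to 557 CPM in WT ischemia mice, and from 886 to 2197 CPM in KO normal and 419 to 1136 CPM in KO ischemia mice. The brown adipocyte sum ran from 146 to 6232 CPM in WT normal, 251 to 1284 in WT ischemia, 1043 to 5958 in KO normal and 913 to 4593 in KO ischemia mice. The summed endothelial markers ran from 737 to 1679 CPM in WT normal and 748 to 1288 CPM in WT ischemia mice, and the smooth muscle sum from 7006 to 24901 and 19864 to 36209. The part of these markers in the differences of Dusp4, Dusp6 and Dusp10 between groups was not tested.

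Over the 14 mice the genes whose log2 CPM was most like that of each member were named by Pearson r, as a description. For Dusp7 these were Dusp26 (r = 0.93, at most 58 counts in a mouse) and Rhobtb2 (0.93), for Dusp6 Cbr4 (0.96) and Them4 (0.95), for Dusp4 Mpzl2 (0.96) and Rnf144a (0.94), and for Dusp10 Mrps9 (0.92) and Cdo1 (0.86). For Dusp8 they were Unc119 (0.92) and Pak6 (0.90), for Dusp16 LOC108167930 (0.90) and F7 (0.89), and for Dusp1 Gm4017 (0.83) and Casq1 (0.83). For the low members they were Gm9791 (0.83) and Cpt1b (0.83) for Dusp2, and Gm7972 (0.87) and 4930432K21Rik (0.86) for Dusp5. Within the family the closest neighbours were Dusp6 and Dusp10 (r = 0.70) and Dusp4 and Dusp10 (r = 0.69), and the closest to Dusp1 was Dusp8 (r = 0.49).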

How the data were processed

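The authors deposited 1 table of read counts per gene symbol, whole numbers without normalization, with 1 column for each of the 14 mice. Per the labels, the submitters' processing notes name HISAT2 2.0.4 and mm10. The counting program, annotation and use of strand are not given in the sources used here. Overlaps between genes, among them that of Dusp5 with its antisense gene, were read from GENCODE. Whether the deposited counts hold that antisense gene separately is not given here.

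The counts were tested with edgeR 4.0.16 in R 4.3.3. Genes were kept by filterByExpr (minimum count 10), scaled by TMM and fitted in 1 quasi-likelihood model of the 4 groups. A gene was called at a Benjamini-Hochberg FDR under 0.05 with a fold over 1.5, adjusted over all 17693 genes tested. Exact two-sided permutation tests used log2 CPM with a prior count of 2. The study's random variance F-test was not repeated. DESeq2 1.42.0 and limma 3.58.1 served as alternatives. Scripts were tested on simulated data.

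The phosphatases, the 7 pathway lists and the 11 marker lists were chosen with earlier results of these data known. Named were the phosphatases, Dnm1l, the 2 most similar genes of each tested phosphatase, and from each pathway list up to 5 called genes or else the 2 with the smallest p for averaged ischemia. 1 gene that this rule names is not reported here. Exons and coordinates are from GENCODE on GRCm38, promoters from RefSeq. No 2 mice of a group agreed within counting noise (chi-square per degree of freedom at least 61.4 in 18 pairs). The labels give each sample as a mouse, so p-values measure the spread between mice.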

Additional observations from a re-analysis of the deposited data

Results flagged for a closer look

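Among 20 groups of 4 mice examined for a mouse far from the others, 1 was found. Dusp10 stood at 31.4 CPM in KO normal replicate 4, with the nearest of the other mice at 15.7 CPM, a gap of 0.879 of the group's range. Chance alone marks about 1 in 20 such groups. Without this mouse the change of Dusp10 with ischemia in KO mice was 1.11 in place of 0.75 on the log2 scale, and the difference of the ischemia effects was 2.75 in place of 2.38. The same mouse had the highest endothelial marker sum of its group (1333 CPM, against 875 to 1087) and the lowest smooth muscle sum (10269.5 CPM, against 12172 to 24334), and their part in its Dusp10 level was not tested.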

How the results depend on the processing

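The 63 fold changes of the 9 tested phosphatases were refitted under alternatives other than leaving out a mouse. These gave 470 values, of which 455 kept direction and side of the limit, 2 passed the limit and 13 reversed. Depth limits Dusp2, Dusp5 and Dusp9, the phosphatases with the fewest counts. For KO mice under ischemia 1 phosphatase, Dusp7, was called in DESeq2 (−0.84, FDR 0.0499) and 1, again Dusp7, when only the groups compared were fitted (−0.81, FDR 0.0377), against 0 in the reported fit. Leaving out each mouse gave 0 to 1 phosphatases for averaged ischemia, the 1 being Dusp7 without WT normal replicate 1, and 0 in every other comparison. Dropping the limit on the fold change left 0 phosphatases called in every comparison.

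Whether the replicate numbers pair the mice was not settled. The deviations of 19 same-numbered pairs correlated at −0.15 to 0.32, and 11 of 19 were above 0.1. Pairs with different numbers were not compared, so these values cannot decide it. With the replicate block the phosphatases called stayed at 0, Dusp2 was 0.042 for ischemia in WT mice and −0.31 for KO against WT averaged, Dusp4 0.031 and Dusp6 −0.20 for KO against WT under normal conditions, and Dusp8 0.014 and Dusp10 −0.14 for KO against WT averaged, all reversed. The block left 3 of the immediate-early list called in place of 6, an alternative added after seeing the data, with Fosl2 and Ier2 no longer called (FDR 0.0513 and 0.0681). Under limma-trend reversals were Dusp2 at 0.24 for ischemia in WT mice and −0.18 for KO against WT averaged, Dusp4 at 0.39 and Dusp6 at −0.11 for KO against WT under normal conditions, and Dusp6 at 0.016 for ischemia in KO mice. Dusp8 for ischemia in WT mice was −0.013 under the filter that asked each mouse for 10 counts and −0.0048 with only the groups compared. The cause of these reversals was not tested. The stricter filter drops Dusp2, and comparisons that use all 4 groups have no fit of fewer groups.

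Leaving out 1 mouse at a time gave 882 values, of which 53 reversed. Over these fits Dusp1 ran from −0.076 to 0.31 for ischemia in WT mice, −0.20 to 0.15 for KO against WT under normal conditions, −0.11 to 0.23 for KO against WT under ischemia, −0.050 to 0.12 for KO against WT averaged and −0.13 to 0.31 for the difference of the ischemia effects. Dusp2 ran from −0.75 to 0.30 for ischemia in WT mice, −1.23 to 0.32 for KO against WT under normal conditions and −0.093 to 0.83 for KO against WT averaged. Dusp4 ran from −0.32 to 0.24 for ischemia in KO mice and −0.53 to 0.79 for KO against WT under normal conditions. Dusp5 ran from −0.12 to 0.64 for ischemia in WT mice and −0.62 to 0.34 for KO against WT under ischemia. Dusp6 ran from −0.22 to 0.70 for KO against WT under normal conditions. Dusp7 ran from −0.59 to 0.073 for ischemia in WT mice and −0.22 to 0.088 for KO against WT under ischemia. Dusp8 ran from −0.33 to 0.29 for ischemia in WT mice, −0.62 to 0.00074 for KO against WT under normal conditions and −0.22 to 0.088 for KO against WT averaged. Dusp10 ran from −0.17 to 0.39 for KO against WT averaged.

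The immediate-early list gave 0 to 6 called genes without 1 mouse, above 3 only without WT normal replicate 1 (6), KO normal replicate 1 (4) or KO ischemia replicate 1 (4), also chosen after seeing the data. Junb lost its call without WT ischemia replicate 2 or 3 (FDR 0.0521 and 0.0512), Fosl2, Ier5, Atf3 and Ier2 lost theirs without 8, 9, 10 and 12 of 14 mice left out singly (FDR up to 0.0684, 0.0855, 0.0789 and 0.101), Atf3 in KO mice without 3 (up to 0.0829), Ier2 also with DESeq2 size factors (FDR 0.0522), and Map2k3 stayed called without each of the 14 mice. Over all genes DESeq2 called 108, 606 and 870 genes for ischemia in WT mice, in KO mice and averaged, against 2, 52 and 164 in edgeR. It called 41, 18, 88 and 11 for KO against WT under normal conditions, under ischemia, averaged and for the difference of the effects, against 0, and 890 against 23 for any difference. That last count was 55 under limma-trend, 62 over every gene with a count and 14 with the block. Fits of only the groups compared called 0 genes for ischemia in WT and 267 in KO mice, limma-trend called 4 and the block 0 for WT mice, the block called 1 for KO against WT averaged, and leaving out 1 mouse gave 0 to 3 in WT mice, 5 to 174 in KO mice and 60 to 361 averaged. It gave 2 to 208 for any difference, 0 to 29 for KO against WT under normal conditions and 0 to 102 averaged, these highest counts all without WT normal replicate 2, and 0 for the other comparisons.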
